A study of Mus musculus with 2 samples.

Results

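The genes described here make fatty acids and build glycerolipids from them in alveolar type 2 cells, the lung epithelial cells that produce surfactant. They are 38 genes fixed by name, and each matched 1 of the 24369 rows of the expression table. The list covers de novo fatty acid synthesis and its regulators, acyl-CoA formation, the steps through phosphatidate to triglyceride, and phosphatidylinositol (PI), phosphatidylglycerol (PG) and phosphatidylserine (PS) synthesis. It also holds lipid storage, lipolysis and uptake. Desaturases, elongases and the choline pathway are not part of it.

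The study profiled sorted type II pneumocytes from wild-type (WT) C57BL6 mice by RNA-seq, with 1 library from postnatal day 7 (P07) and 1 from postnatal day 28 (P28). The labels name no transgene or treatment, and do not say how the cells were sorted or whether animals were pooled. Other ages named in the protocol were not analysed here. Each value is an RPKM, a read count scaled by gene length and library depth, and can be compared between genes because it is per length. With 1 library per age there is no replicate error and no test, so "higher" and "lower" below compare these 2 libraries. The plain RPKM ratio, P28 over P07, is given with a 95% exact counting interval (Clopper-Pearson), which covers counting error only.

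Fatty acids are built in the cytosol from acetyl-CoA, which citrate or acetate supplies, and are activated to acyl-CoA before they can be esterified. Acyl groups are added to glycerol 3-phosphate to give phosphatidate, the branch point of glycerolipid synthesis. Lipins remove its phosphate to give the diacylglycerol used for phosphatidylcholine and triglyceride, while CDP-diacylglycerol synthases turn it into the precursor of PI and PG. In type 2 cells this route feeds surfactant, whose main acidic phospholipid in mature lung is PG.

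Lpin2, which encodes a phosphatidate phosphatase, was the only one of these genes at least 2-fold higher at P28, and none was at least 2-fold lower. At least 1.5-fold higher were Lpin2, Cd36 (a fatty acid translocase), Fasn (fatty acid synthase) and Pnpla2 (adipose triglyceride lipase). Cdipt, the PI synthase gene, was at least 1.5-fold lower. At equal totals, a scaling described below, the 1.5-fold counts were 1 higher and 2 lower of the 32 genes tested. Among all 9653 genes tested they were 159 higher and 2327 lower. These calls use log2((RPKM + 1) at P28 / (RPKM + 1) at P07), below called the log2 ratio, and need 1 RPKM or more at either age. This scale understates the difference of low genes.

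Of the 38 genes, 32 reached that minimum, and 6 did not (Acacb, Thrsp, Lpin3, Dgat2, Ptdss2 and Lipe). Among the 32, Mlxipl and Lpin1 passed through the P07 value alone and Mgll through the P28 value alone. The 1 gene at least 2-fold higher was 3.12% of the 32, where 1.18% of 9653 genes were 2-fold higher and 1.96% were 2-fold lower. At 1.5-fold, 4 of the 32 (12.5%) were higher against 4.50% of all genes, and 1 (3.12%) was lower against 7.46%. The median log2 ratio was 0.11 for the 32 genes and -0.08 for all genes tested, and 26 of the 32 lay above the median of all genes. When both libraries were scaled to the same total RPKM these medians became -0.18 and -0.38, so the sign for the lipid genes depends on the scaling. The scaling moved the median of all genes by -0.29 and left 8394 of the 9653 with negative log2 ratios, against 20 of the 32. It depends on the most abundant genes. Without the 11 genes that were among the 10 most abundant of either library, the factor on P28 was 0.980 in place of 0.760. The median of the lipid genes was then 0.09.

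The counting interval lay wholly above 1 for 14 of the 32 genes (43.8%) and wholly below 1 for 3 (9.38%), against 17.9% and 33.1% of 9589 genes with a transcript length. The 14 include Mgll, which passed the minimum through P28 alone, and the 3 include Lpin1, which passed through P07 alone. These counts thus follow in part from the minimum. A stricter line is the ratio that keeps a gene at an equal share of its library, 1.32, because the total RPKM was 108758 at P07 and 143071 at P28. Above this line lay the intervals of 5 genes, Lpin2, Cd36, Acaca, Fasn and Pnpla2, or 15.6% against 5.18% of all genes. Below it lay 16 (50%), among them Mlxipl and Lpin1, which passed through P07 alone, against 67.8% of all genes. Together the 38 genes held 372 RPKM at P07 and 513 at P28, which is 0.342% and 0.359% of each total.

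**Figure D1:**
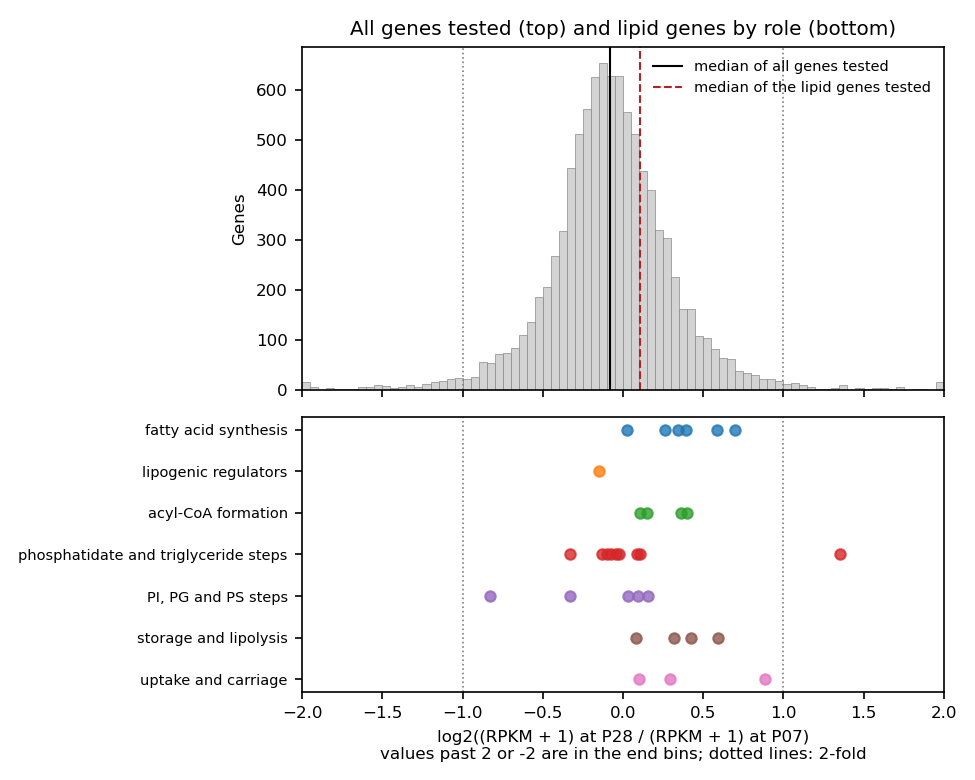
Histogram of log2((RPKM + 1) at P28 / (RPKM + 1) at P07) for the 9653 genes tested, with number of genes on the vertical axis, above the same value for each of the 32 lipid genes tested, 1 row per role. The solid line is the median of all genes (-0.08), the dashed line that of the lipid genes (0.11), and the dotted lines mark 2-fold. Lpin2 at 1.35 is the only lipid gene past a dotted line.

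Some properties of the 2 libraries bear on these values. The spacing of the lowest RPKM values gave about 17500000 reads in the RPKM denominator at P07 and 24500000 at P28. The reads recovered over genes with a transcript length were fewer, about 4510000 at P07 and 6960000 at P28. All 12 type 2 cell markers were detected, with Sftpc (surfactant protein C) at 13343 and 24085 RPKM. The sums of other marker lists moved between the libraries. The sum of 12 endothelial genes went from 59.5 to 26.9 RPKM, with 7 of the 11 tested at least 2-fold lower, and that of 12 fibroblast genes from 42.5 to 19.6, with 3 of 9 lower and 1 higher. The sum of 9 airway genes went from 7308 to 19060 RPKM, with 4 of 9 at least 2-fold higher and Scgb1a1 the most abundant. The sum of 8 type 1 cell genes went from 326 to 189 RPKM, with 3 of 8 lower. The sum of 6 erythroid genes went from 33.5 to 1.15 RPKM, and the 4 globin genes tested passed the minimum through P07 alone, so that their lower values at P28 follow in part from the minimum. This holds also for 4 of the 11 endothelial genes. Of the 9 fibroblast genes tested, 1 of the 3 lower (Lox) passed through P07 alone. Another 2 passed through P28 alone, among them Inmt, the 1 gene higher. The sum of 12 macrophage and leukocyte genes went from 1641 to 5815 RPKM, nearly all from Lyz2, which type 2 cells also express, and only 4 of the 12 were tested. Lyz2 was at least 2-fold higher, Cd68 had 0.455 and 1.08 RPKM (2.36, 1.10 to 5.22), Csf1r 2.23 and 1.49, and Cd79b 2.84 and 3.02. Marco, C1qa, C1qb and Adgre1 were at 0 in both libraries. The 8 adipocyte markers summed to 0.23 and 0.28 RPKM, and Adipoq, Retn, Plin1 and Lep were at 0 in both. The part of these cells in the values below was not tested. In such bulk samples, fewer cells of a type and less RNA per cell cannot be told apart. Xist had 52.7 and 0.245 RPKM, and the Y-linked genes Ddx3y, Eif2s3y, Kdm5d and Uty were listed at 0 at P07 and at 4.01, 7.19, 2.16 and 2.57 RPKM at P28, so that sex and age cannot be told apart in these libraries.

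The promoters of the 4 genes at least 1.5-fold higher at P28 are shown because these genes had the highest log2 ratios of the 32 tested. Each is the 250 bases before a RefSeq start in GRCm38.p6, 5′ to 3′ on the gene's strand. They lie at chr17:71183282-71183531 (plus strand, Lpin2), chr11:120824548-120824797 (minus, Fasn), chr5:17835897-17836146 (minus, Cd36) and chr7:141454938-141455187 (plus, Pnpla2). Capitals mark a match to any of the 5 motifs named in the next paragraph. Lpin2 has 3 such windows in the table, and the one nearest its 5′ end is printed.
Lpin2: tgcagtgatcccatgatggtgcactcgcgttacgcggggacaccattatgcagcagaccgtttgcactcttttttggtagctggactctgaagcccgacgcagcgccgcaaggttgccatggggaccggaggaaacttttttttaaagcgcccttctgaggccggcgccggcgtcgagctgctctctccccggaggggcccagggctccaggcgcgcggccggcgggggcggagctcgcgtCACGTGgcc
Fasn: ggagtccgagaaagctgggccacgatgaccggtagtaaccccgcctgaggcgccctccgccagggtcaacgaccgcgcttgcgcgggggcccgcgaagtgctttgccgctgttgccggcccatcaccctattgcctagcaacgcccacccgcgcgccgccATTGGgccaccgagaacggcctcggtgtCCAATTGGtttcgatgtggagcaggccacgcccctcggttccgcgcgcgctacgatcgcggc
Cd36: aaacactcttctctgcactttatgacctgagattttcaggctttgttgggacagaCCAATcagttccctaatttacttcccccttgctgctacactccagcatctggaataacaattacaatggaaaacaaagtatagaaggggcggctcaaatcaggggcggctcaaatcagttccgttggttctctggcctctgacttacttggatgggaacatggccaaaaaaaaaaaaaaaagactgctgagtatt
Pnpla2: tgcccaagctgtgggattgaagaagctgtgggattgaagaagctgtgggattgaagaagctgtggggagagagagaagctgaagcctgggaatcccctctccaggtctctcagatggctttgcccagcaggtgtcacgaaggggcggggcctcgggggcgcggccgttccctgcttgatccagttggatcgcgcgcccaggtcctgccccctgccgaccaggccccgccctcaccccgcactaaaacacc

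Promoter windows were matched by symbol for 31 of the 38 genes, 42 windows in all. The letters were searched on both strands for a sterol regulatory element (TCACNCCAC, bound by SREBP factors), an E-box (CACGTG), a carbohydrate response element (a pair of E-boxes separated by 5 bases, so that each match is also an E-box match), a CCAAT box (CCAAT, bound by NF-Y) and a liver X receptor direct repeat (DR4). The E-box was in 5 of 42 windows (11.9%), against 6.80% of 20664 windows of all genes in the table. It was found at Lpin2, where it begins at position -9 from the start, and at Mlxipl, Mgll, Lipe and Slc25a1. The sterol regulatory element was in 2 windows (4.76% against 1.08%), those of Mlxipl and Acsl1. The CCAAT box was in 19 windows (45.2% against 35.1%), among them Fasn, with matches beginning at -90, -62 and -59, and Cd36, with 1 at -195. The last pair at Fasn overlaps. Another Lpin2 window, not printed above, held CCAAT matches beginning at -233, -165 and -57. The Pnpla2 window held none of the 5 motifs. The carbohydrate response element was searched only as a pair of exact E-boxes. That pattern was in 0 of the 20664 windows, so it could not set these genes apart from others. The liver X receptor repeat, also searched as an exact pattern, was in 0 windows of these genes and 1 of all windows. It too could not set these genes apart from others. These matches describe letters only.

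Fatty acid synthesis genes stood at or above equal RPKM at P28, and the increase was uneven along the pathway. Of 7 genes 6 were tested, with a median log2 ratio of 0.37 as deposited and 0.03 at equal totals. Fasn, which makes palmitate, had 31.5 RPKM at P07 and 51.8 at P28 (ratio 1.64, 1.59 to 1.70). Its gene is on chromosome 11, 120805846 to 120824547, minus strand in GRCm38, and no other annotated gene shares its exons. Acaca, whose acetyl-CoA carboxylase makes malonyl-CoA in the committed step, had 7.51 and 11.8 RPKM (ratio 1.57, 1.46 to 1.68), just under the 1.5-fold call on the log2(RPKM + 1) scale. Acly, which makes cytosolic acetyl-CoA from citrate, had 12.7 and 17.0 RPKM (1.34, 1.24 to 1.45). Slc25a1, the mitochondrial citrate carrier, had 4.26 and 5.67 RPKM (1.33, 1.06 to 1.66). The last pair lay on the line of an equal share of the library, with log2 ratios of 0.02 and 0.01 at equal totals.

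Me1, the cytosolic malic enzyme that supplies NADPH, had 19.8 and 20.2 RPKM, a ratio of 1.02 (0.946 to 1.10), so that its interval included 1. Acss2, which makes acetyl-CoA from acetate, had 1.12 and 1.55 RPKM (1.38, 0.987 to 1.91), and its exons overlap 395 bases of Gss on the other strand. Acacb, the carboxylase whose malonyl-CoA restrains mitochondrial fatty acid import, stayed below 1 RPKM at 0.161 and 0.311, about 24 and 65 reads, with a ratio of 1.94 (1.20 to 3.23). Acaca thus held 97.9% of the acetyl-CoA carboxylase RPKM at P07 and 97.4% at P28.

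Ratios of genes within a library do not depend on how libraries are scaled. Fasn stood at 4.20 times Acaca at P07 and 4.41 times at P28, a change of 1.05-fold (0.973 to 1.13). Against Acly, Fasn was 1.23-fold higher at P28 than at P07 (1.13 to 1.34), and against Me1 1.61-fold (1.48 to 1.75). Against Slc25a1 the change was 1.24-fold (0.986 to 1.55). The interval of the Fasn to Acaca change thus included 1, and that of the Fasn to Me1 change did not. These pairs, and those below that join genes of different families, were chosen after their values were seen.

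The regulators of lipogenesis were at the low end. Mlxipl, which encodes the carbohydrate response factor ChREBP, had 1.07 and 0.869 RPKM (ratio 0.809, 0.577 to 1.14). Thrsp (Spot 14), a thyroid hormone-responsive lipogenic protein, had 0.164 and 0.196 RPKM, about 4 and 6 reads, too few to place its ratio of 1.19 (0.254 to 5.17). Mid1ip1, the paralog of Thrsp whose product promotes polymerisation of acetyl-CoA carboxylase, was not on the list of 38 and had 27.5 and 45.9 RPKM (1.67, 1.55 to 1.80).

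**Figure D2:**
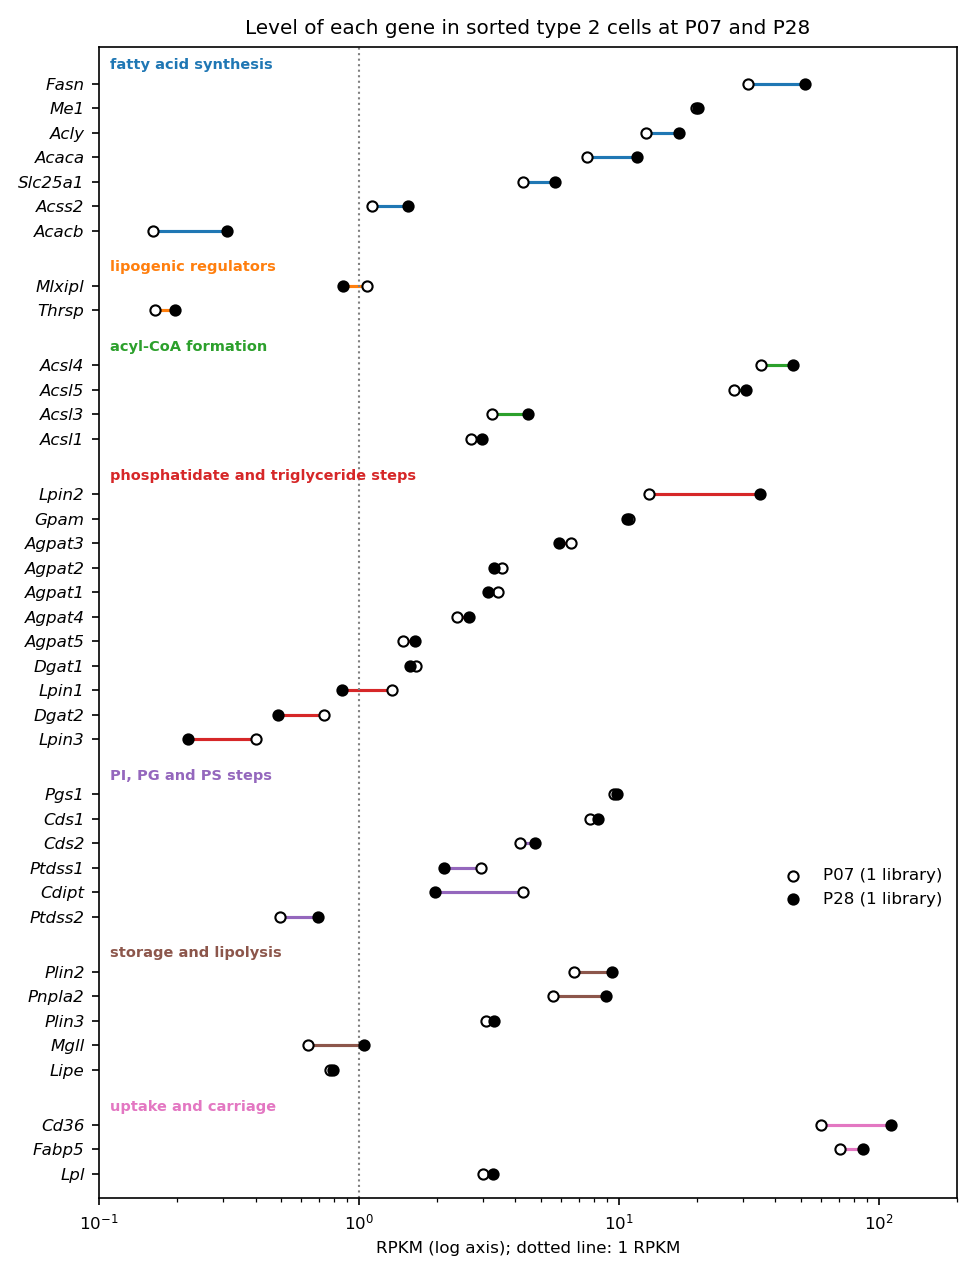
RPKM of each of the 38 genes (log axis, 1 gene per row, grouped by role and ordered by the P28 value) at P07 (open circles) and P28 (filled circles), 1 library each, with a dotted line at 1 RPKM. Cd36 and Fabp5 are the most abundant, Lpin2 has the longest step to the right among genes above 1 RPKM, and Cdipt has the longest step to the left.

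Long-chain acyl-CoA synthetases couple fatty acids to CoA. Acsl4, which favours arachidonate and other polyunsaturated fatty acids, led at 35.3 and 46.9 RPKM (1.33, 1.27 to 1.39), followed by Acsl5 at 27.6 and 30.8 (1.12, 1.06 to 1.18). Acsl3, found on the endoplasmic reticulum and lipid droplets, had 3.25 and 4.46 RPKM (1.37, 1.14 to 1.66), and Acsl1 had 2.69 and 2.97 (1.10, 0.908 to 1.34). None was 1.5-fold apart, and the order of the 4 genes was the same in both libraries. At equal totals Acsl4 (0.01) and Acsl3 (0.05) had log2 ratios near 0 while Acsl5 (-0.23) and Acsl1 (-0.19) turned negative. Acsl4 held 51.3% of the family's RPKM at P07 and 55.1% at P28, and Acsl5 40.1% and 36.2%. Relative to Acsl4, Acsl5 was 1.19-fold lower at P28 (1.11 to 1.28). Acsl4 lies on chromosome X, and Acsl5 shares 404 exon bases with Zdhhc6 on the other strand.

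The acyltransferases that build phosphatidate were close to level as deposited. Gpam, the mitochondrial glycerol-3-phosphate acyltransferase that adds the first acyl group, had 10.9 and 10.7 RPKM (0.983, 0.904 to 1.07). The AGPAT enzymes add the second. Agpat3 was the most abundant at 6.52 and 5.88 RPKM (0.901, 0.789 to 1.03). Agpat2 had 3.54 and 3.31 RPKM, Agpat1 3.43 and 3.14, Agpat4 2.38 and 2.64, and Agpat5 1.48 and 1.64. The counting intervals of all 5 included 1, and their sum was 17.3 and 16.6 RPKM. Agpat3 held 37.6% of it at P07 and 35.4% at P28, and no AGPAT differed from Agpat3 in its change beyond counting error. Agpat2 shares 64 exon bases with the endothelial gene Egfl7 on the other strand, which had 4.75 and 1.40 RPKM. At equal totals Gpam and the 5 AGPAT genes all had negative log2 ratios, from -0.47 for Agpat3 to -0.16 for Agpat5. So had 8394 of all 9653 genes tested.

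Lipins convert phosphatidate to diacylglycerol, and Lpin2 stood apart from its paralogs. Lpin2 had 13.01 RPKM at P07 and 34.8 at P28, about 1120 and 4191 reads, a ratio of 2.68 (2.50 to 2.86). Its gene is on chromosome 17, 71182560 to 71249817, plus strand, and shares no exon with another annotated gene. By rank of RPKM among all rows it moved from 1088 to 359, and its log2 ratio of 1.35 exceeded that of 99.4% of genes tested. At equal totals the log2 ratio was 0.98, so the 2-fold call fell just short under that scaling. Equal totals without the most abundant genes gave 1.33. Setting the median log2 ratio of all genes to 0 gave 1.46, and equal upper quartiles gave 1.45. Lpin1, the lipin best known from adipose tissue, went the other way, with 1.34 and 0.859 RPKM, 1.56-fold lower (1.17 to 2.07). It reached 1 RPKM at P07 alone. Lpin3 had 0.403 and 0.219 RPKM, about 24 and 19 reads (ratio 0.544, 0.293 to 1.08).

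Lpin2 made up 88.2% of lipin RPKM at P07 and 97.0% at P28, while Lpin1 made up 9.07% and 2.39%. Relative to Lpin2, Lpin1 was 4.17-fold lower at P28 (3.11 to 5.58) and Lpin3 4.92-fold lower (2.47 to 9.16). Lpin2 also pulled away from the steps before and after it. It was 1.19 times Gpam at P07 and 3.25 times at P28, a 2.72-fold change (2.44 to 3.03), and its ratio to Dgat1 changed 2.80-fold (1.94 to 4.08). The final triglyceride step was low in both libraries. Dgat1 had 1.65 and 1.58 RPKM (0.955, 0.660 to 1.37), and Dgat2, the other diacylglycerol acyltransferase, 0.732 and 0.488 (0.667, 0.379 to 1.16). Lpin2 was thus 7.89 times Dgat1 at P07 and 22.1 times at P28.

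**Figure D3:**
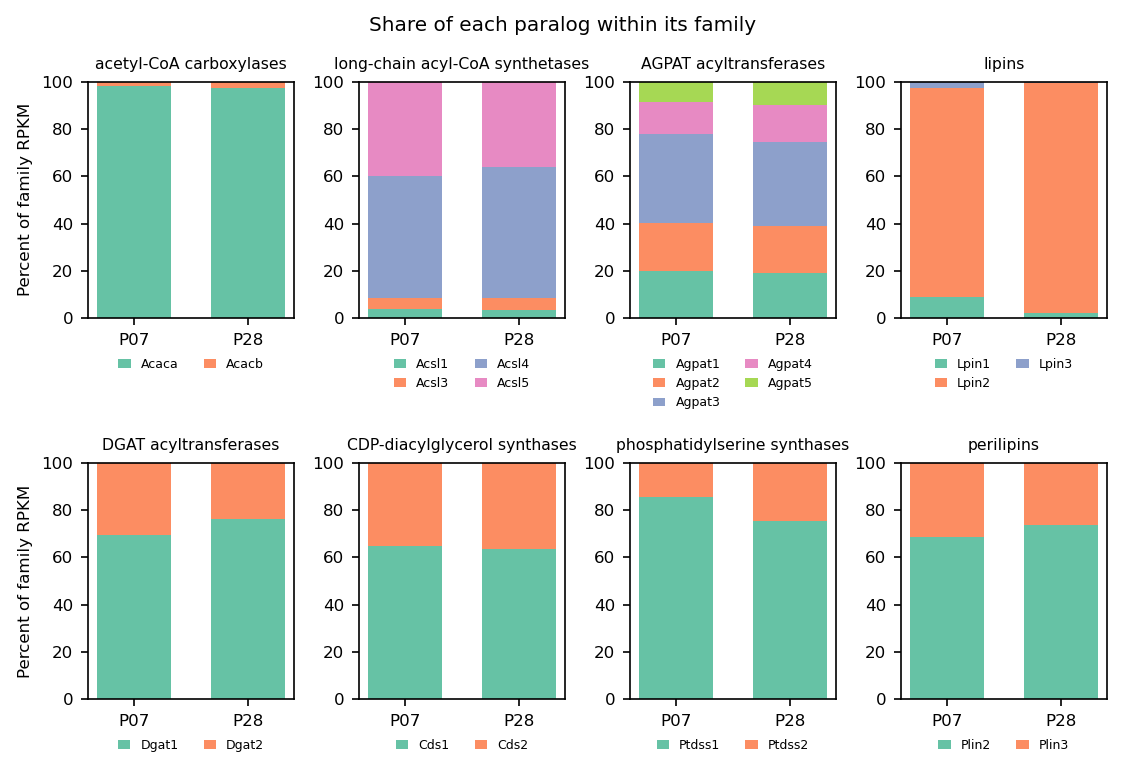
Percent of a family's summed RPKM held by each paralog at P07 and P28 (1 library each), for 8 families. The lipin panel shows Lpin2 going from 88.2% to 97.0%, the phosphatidylserine synthase panel shows Ptdss1 going from 85.5% to 75.4%, and the AGPAT panel is nearly the same in both libraries.

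In the branch to acidic phospholipids, the PG and PI synthases diverged. Cds1 and Cds2 make CDP-diacylglycerol, the precursor of both. Cds1 had 7.71 and 8.29 RPKM (1.08, 0.961 to 1.20) and Cds2 4.17 and 4.76 (1.14, 1.01 to 1.29), and Cds1 held 64.9% and 63.5% of their sum. Pgs1, the phosphatidylglycerophosphate synthase of the PG route, had 9.59 and 9.82 RPKM (1.02, 0.910 to 1.15). Cdipt, which transfers inositol to CDP-diacylglycerol, had 4.27 and 1.97 RPKM, about 148 and 95 reads, 2.17-fold lower (1.67 to 2.85). Its log2 ratio of -0.83 missed the 2-fold call, which it passed at equal totals (-1.12). Only 3.29% of genes tested had a lower log2 ratio.

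The level of Pgs1 relative to Cdipt went from 2.24 times at P07 to 4.99 times at P28, a 2.22-fold change (1.67 to 2.99), and that of Cds1 relative to Cdipt changed 2.33-fold (1.75 to 3.13). Cdipt (chromosome 7, 126975914 to 126980501, plus strand) shares 169 exon bases with the antisense gene Cdiptos, and nothing states that counting used strand. Tamm41, the mitochondrial CDP-diacylglycerol synthase that serves cardiolipin, was also lower, at 1.90 and 0.593 RPKM (3.20-fold, 1.77 to 6.05). It reached 1 RPKM at P07 alone. It belongs to a group of 14 genes of a wider list given below, named after its values were seen. Of these 14, 7 had positive and 7 negative log2 ratios, with a median of 0.02.

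Phosphatidylserine synthases exchange the head group of an existing phospholipid for serine. Ptdss1, which uses phosphatidylcholine, had 2.94 and 2.13 RPKM, 1.38-fold lower at P28 (1.11 to 1.70), and shares 229 exon bases with Mterf3 on the other strand, which had 3.79 and 2.69 RPKM. Ptdss2, which uses phosphatidylethanolamine, had 0.497 and 0.693 RPKM (1.39, 0.890 to 2.19). Relative to Ptdss1, Ptdss2 was 1.93-fold higher at P28 (1.16 to 3.17), while Ptdss1 remained the larger share at 75.4%. Of the 5 genes tested in this branch, 3 had positive log2 ratios as deposited (Cds1, Cds2 and Pgs1). All 5 were negative at equal totals, as were 8394 of all 9653 genes tested.

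**Figure D4:**
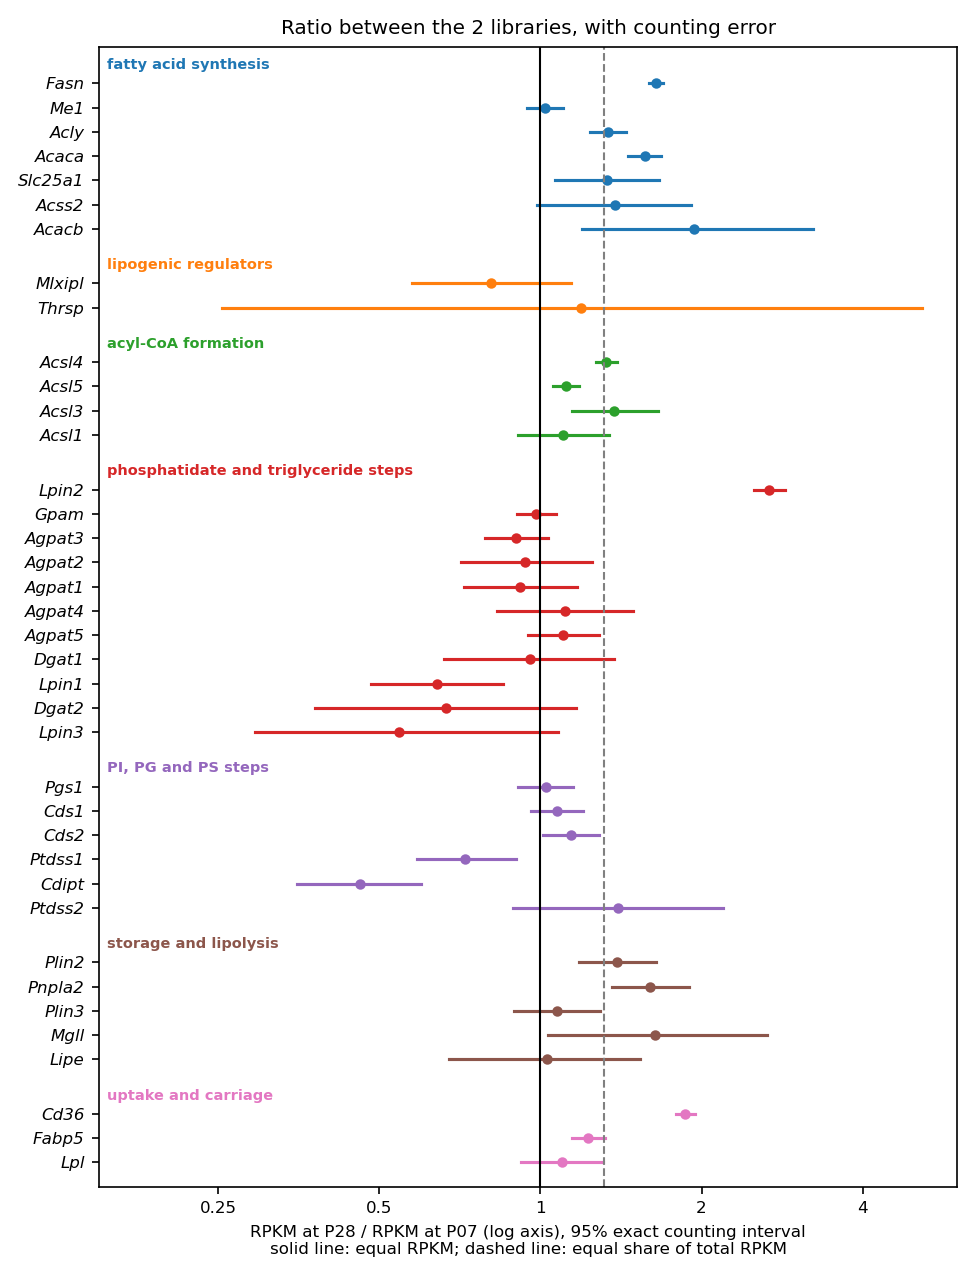
Ratio of RPKM at P28 to RPKM at P07 for each of the 38 genes (log axis), with its 95% exact counting interval as a line, grouped by role. The solid vertical line marks equal RPKM and the dashed line an equal share of the library total (1.32). The intervals of Lpin2, Cd36, Fasn, Acaca and Pnpla2 lie right of both lines, and those of Cdipt, Lpin1 and Ptdss1 lie left of both.

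Genes of lipid storage and lipolysis leaned towards P28 as deposited. Plin2, the droplet coat protein perilipin 2, had 6.74 and 9.37 RPKM (1.39, 1.18 to 1.64), and Plin3 had 3.08 and 3.31 (1.08, 0.894 to 1.29). Pnpla2, which removes the first acyl group of triglyceride, had 5.58 and 8.93 RPKM (1.60, 1.36 to 1.89). Mgll, the monoacylglycerol lipase that removes the last, had 0.638 and 1.05 RPKM, about 28 and 64 reads (1.64, 1.03 to 2.65). Lipe, hormone-sensitive lipase, was low in both at 0.773 and 0.795 RPKM (1.03, 0.675 to 1.53). Relative to Lipe, Pnpla2 was 1.56-fold higher at P28 (1.01 to 2.46), whereas against Mgll (0.977, 0.588 to 1.60) and Plin2 (1.15, 0.910 to 1.46) no change beyond counting error was seen. At equal totals Pnpla2 (0.25), Mgll (0.14) and Plin2 (0.07) kept positive log2 ratios and Plin3 (-0.22) did not.

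Uptake and carriage held the most abundant genes of the list. Cd36 had 59.9 RPKM at P07 and 112 at P28, about 3099 and 8086 reads, a ratio of 1.87 (1.79 to 1.94), and went from rank 193 to rank 87 of all rows. Its log2 ratio was 0.89 as deposited and 0.50 at equal totals. Capillary endothelium, macrophages and adipocytes also express Cd36. The sums of the endothelial, macrophage and adipocyte lists are given above, with the endothelial sum lower at P28. The macrophage sum was higher, but nearly all of it was Lyz2, which type 2 cells also express. Of other genes on that list, Cd68 was higher, while Csf1r (0.669, 0.531 to 0.851) and Ptprc (0.0902 and 0.00718 RPKM) were lower. Marco, C1qa, C1qb and Adgre1 were at 0. The part of endothelial cells, macrophages and adipocytes in the Cd36 values was not tested. Fabp5, a cytosolic fatty acid-binding protein, had 70.8 and 87.1 RPKM (1.23, 1.15 to 1.32), with a log2 ratio of 0.29 that became -0.10 at equal totals. Lpl, lipoprotein lipase, had 2.99 and 3.28 RPKM (1.10, 0.920 to 1.31).

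Cd36 exceeded Lpl 20.0 times at P07 and 34.1 times at P28, a 1.70-fold change (1.42 to 2.04). Against Fabp5 the change was 1.52-fold (1.40 to 1.65), so that Fabp5 led Cd36 at P07 and Cd36 led Fabp5 at P28. Gpihbp1, which anchors lipoprotein lipase on capillary endothelium, went from 2.21 to 0.714 RPKM, about 25 and 11 reads (3.09-fold lower, 1.51 to 7.16). Of the 11 endothelial markers tested, Esam had a positive log2 ratio (9.68 and 10.2 RPKM) and 10 had negative ones.

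A wider list of 121 genes of the same pathways, none of them among the 38, was matched in full. Of these, 85 were tested, 1 was at least 2-fold higher (1.18% of them), 0 were 2-fold lower, and the median log2 ratio was 0.00 as deposited and -0.28 at equal totals. At 1.5-fold, 6 were higher (7.06%) and 5 lower (5.88%), and at equal totals 1 was higher and 11 lower. Of the 85, 9 reached 1 RPKM at 1 age only, among them Fitm2 and Lipg through P28 and Tamm41, Gpihbp1 and G0s2 through P07, so the 1.5-fold counts follow in part from the minimum. The counts as deposited stood beside 1.18% and 4.50% higher, and 7.46% lower at 1.5-fold, among all genes. At equal totals 159 of all 9653 genes tested were 1.5-fold higher and 2327 were lower.

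The gene at least 2-fold higher was Acot7, a cytosolic acyl-CoA thioesterase that splits the product of the ACSL enzymes, with 11.3 and 40.1 RPKM (3.56, 3.13 to 4.05). Its log2 ratio was 1.74, and 1.37 at equal totals. The others at least 1.5-fold higher were Dbi, the acyl-CoA-binding protein (46.0 and 78.6 RPKM, ratio 1.71), Mid1ip1, Acot2, Fitm2, which promotes droplet formation (0.726 and 1.86 RPKM), and Lipg, endothelial lipase (0.405 and 1.14 RPKM). Acot2 had 12.7 and 20.7 RPKM and its near-identical neighbour Acot1 20.6 and 18.2, and reads of this pair may have been shared by the counting. Lower by at least 1.5-fold were Tamm41, Gpihbp1, Cbr4 (mitochondrial fatty acid synthesis, 4.07 and 1.79 RPKM), Ppap2a (a lipid phosphate phosphatase, 2.97 and 1.60 RPKM) and G0s2, an inhibitor of the lipase made from Pnpla2 (1.15 and 0.289 RPKM, about 17 and 6 reads).

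Of the 2 most abundant genes of each group of this wider list, Acot7, Dbi, Mid1ip1 and Acot1 are described above. The ratios of the rest ran from 0.854 (Lpcat3) to 1.44 (Scp2). Ces1d, a triglyceride-hydrolysing carboxylesterase with close paralogs, had 86.2 and 99.3 RPKM (1.15, 1.10 to 1.21), and Abhd5, the activator of the Pnpla2 lipase, 15.1 and 17.6 (1.17, 1.06 to 1.28). Pi4k2b, a PI 4-kinase that consumes the product of Cdipt, had 45.0 and 43.4 RPKM (0.965, 0.915 to 1.02), and Hadha 8.57 and 9.48. Scp2, a lipid carrier, had 29.4 RPKM at P28 against 20.4 at P07. Lpcat3, an acyltransferase that remodels phospholipids, had 8.002 and 6.83 RPKM, Gpd1, which makes glycerol 3-phosphate, 4.44 and 4.64, and the transcription factor gene Xbp1 17.9 and 20.2. At equal totals those not described above all had negative log2 ratios except Scp2 (0.13), where 8394 of all 9653 genes tested were negative.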

How the data were processed

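Total RNA of sorted type II pneumocytes was reverse transcribed, made into libraries with Nextera XT and sequenced as paired reads, per the labels' protocols. TopHat, TopHat2 2.0.9 and GRCm38 (mm10) appear in the submitters' processing notes, with no role or order. The authors deposited RPKM values in 1 column for each age, per the file headers. Which program and annotation gave them, and with what filters, is not given in the sources used here. The column names matched the sample titles, and 0 columns of sample values were left unused.

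Depth was recovered from RPKM multiplied by GENCODE transcript length. Of 2641 low genes with a single length at P07, 59.8% fell on whole steps within 0.05, as did 56.6% of 2848 at P28, where chance gives 10%. Read numbers assume that the smallest step is 1 read, and are approximate for genes with several lengths (18140 of 23967 had 1). PCR reads are not independent molecules, so intervals cover counting error only. Changes of one gene relative to another carry a conditional exact 95% interval on these reads. Shared exons were taken from the GENCODE annotation of GRCm38, in which 15 of the 38 genes overlapped another gene. Promoters came from RefSeq, GRCm38.p6.

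A pseudocount of 1 and a minimum of 1 RPKM in at least 1 library were used, in Python 3.11.15 with scipy 1.17.1. The calculation was tested on simulated data. The members and lists were chosen with earlier results of these data known. Every member is named. Of the wider list, the rule named the genes at least 2-fold apart and the 2 most abundant of each group. Tamm41, Gpihbp1, Cbr4, Ppap2a, G0s2, Acot2, Fitm2 and Lipg were named after their values were seen, as were Mboat2 and Ppap2b. Alternatives changed the pseudocount, the filter, the scaling and the promoter window. Protein sequences were not used here.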

Additional observations from a re-analysis of the deposited data

How the results depend on the processing

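Rescaling both libraries to the same total RPKM changed the most results. The median log2 ratio of the lipid genes turned from 0.11 to -0.18, the 2-fold counts went from 1 higher and 0 lower to 0 higher and 1 lower (Cdipt), and the 1.5-fold counts from 4 higher and 1 lower to 1 higher (Lpin2) and 2 lower (Cdipt and Ptdss1). In the wider list 3 genes became 2-fold lower, and the 1.5-fold counts went from 6 higher and 5 lower to 1 and 11. Of 32 genes, 11 changed the sign of their log2 ratio, 0 of them among the 5 at least 1.5-fold apart. Over all genes the 1.5-fold counts went from 434 higher and 720 lower to 159 and 2327. The 2-fold split of all genes, below called the split, went from 114 higher and 189 lower to 65 and 445. With a pseudocount of 0.1, 1 lipid gene was 2-fold lower (Cdipt), 4 genes of the wider list were 2-fold higher and 4 lower, and the split of all genes was 226 and 530. With a pseudocount of 5, 0 lipid genes and 0 of the wider list were 1.5-fold lower, beside 152 of all 9653 genes. Among genes of 5 RPKM or more both counts were also 0, beside 261 of 3631 genes. The 2-fold splits of all genes were 39 and 34, and 73 and 93. The pseudocount of 5 left 3 of the wider list 1.5-fold higher, beside 156 of all 9653 genes. With the median log2 ratio set to 0 the split was 155 and 154, and with upper quartiles made equal 144 and 159. Under these and the other alternatives, no further count of lipid genes or of the wider list moved by more than 1.5 times. The median of the lipid genes was 0.14 and 0.06 with pseudocounts of 0.1 and 5, 0.37 over the 16 genes of 5 RPKM or more, 0.10 with no filter, 0.09 at equal totals without the most abundant genes, and 0.19 and 0.18 under the last pair of scalings. The 1.5-fold counts of the wider list were rerun after the data were seen. Extending the promoter windows to 50 bases after the start gave 7 windows with an E-box in place of 5. That was 16.7% against 8.05% of all windows, where the shorter windows gave 11.9% against 6.80%. Using the longest transcript left the paralog ratios as they were, since they come from RPKM. No paired analysis was possible because the ages share only replicate number 1, and no library could be left out with 1 per age. The protein motif search planned at the outset was not run. Low genes such as Thrsp, Lpin3, Dgat2 and Acacb are limited by depth.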

Other observations

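Mboat2, a lysophospholipid acyltransferase of the wider list, had 0.852 RPKM at P07 and 0.189 at P28, about 68 and 21 reads, 4.51-fold lower (2.74 to 7.78). It stayed below 1 RPKM in both libraries and so entered no count. Ppap2b, a paralog of Ppap2a, had 2.39 and 3.65 RPKM (1.53, 1.24 to 1.90), while Ppap2a was 1.86-fold lower (1.31 to 2.70). Whether these differences recur in other animals was not tested.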
